A study of Mus musculus with 19 samples.

Results

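The change in translational efficiency between Fmr1 knockout (KO) and wild-type (WT) hippocampal slices was described for every gene that could be tested. Translational efficiency (TE) is the amount of ribosome footprints on an mRNA relative to the amount of that mRNA, and its change is the log2 footprint change minus the log2 RNA change, taken as the interaction of assay and genotype in a single model. All 14 libraries with a column in the deposited table entered, out of 19 labelled samples: cytoplasmic RNA and ribosome footprints of 3 KO and 4 WT lysates. The table lists 14459 genes, and 14435 of them were tested. The other 5 labelled samples are not analysed here.

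The slices came from male mice of the C57BL/6 strain aged 28 to 35 days, either Fmr1 KO, a line backcrossed onto that strain, or WT littermates. For every lysate of both genotypes 8 to 10 slices of 400 µm from 6 to 8 animals were pooled after resting for 3 to 4 h at 30 °C. Cycloheximide (100 µg/ml), an inhibitor that holds ribosomes on their mRNA, was then added to both genotypes. A lysate is therefore a pool of animals, and per the protocols both of its libraries, RNA and footprints, come from the same pool. The protocol describes cutting away area CA3 to enrich CA1, whereas the source name gives slices with cortex.

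Fmr1 encodes FMRP, an RNA-binding protein whose loss causes fragile X syndrome. FMRP binds the coding sequence of many neuronal mRNAs and is known as a repressor that can hold ribosomes in place on them. A footprint library counts ribosomes wherever they sit, so the footprint to RNA ratio of an mRNA depends both on how often ribosomes start and on how long each stays. Scaling within each assay sets the typical gene near 0, and a change shared by all mRNAs cannot be seen.

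Estimated counts per library ranged from 4.97 to 9.96 M in RNA and from 15.6 to 22.7 M in footprints, so RNA was the shallower side of each ratio. The median within-group SD of the log2 level was 0.112 in RNA and 0.0688 in footprints. Neuron markers were abundant: Snap25, a vesicle fusion protein, had a mean of 665 TPM (the deposited transcript abundance, a level per length and depth) in WT RNA, and the kinase Camk2a had 1115 TPM. Grik4, a kainate receptor subunit of CA3, was at 39.0 TPM and Prox1, of the dentate gyrus, at 45.3 TPM in WT RNA. Prox1 is also an interneuron marker, and 1 marker for each area does not establish that its RNA was present. The 24 dentate and CA3 markers summed to 2709 to 3148 TPM in WT RNA and 2320 to 2697 in KO RNA. In footprints they summed to 4475 to 4632 TPM in WT and 3887 to 4076 in KO, without overlap. Microglia, astrocyte and fibroblast marker sums were also below WT in every KO library of both assays, as were those of choroid plexus, ependyma and blood. A sum follows its most abundant members, and single markers differed. Of the 21 genes listed for choroid plexus, ependyma and blood, 11 had values. Enpp2, also an oligodendrocyte marker, dominated their sum, at 94.2 to 104 TPM in KO RNA and 99.5 to 113 TPM in WT RNA. Ttr, of the choroid plexus, was low but went the other way. Its means were 5.48 TPM in KO and 1.91 TPM in WT RNA, and 6.95 and 1.97 TPM in footprints. The astrocyte marker Gfap had a mean of 536 TPM in KO and 517 TPM in WT RNA. Of the 26 astrocyte markers, RNA was called lower for 2 (7.69%, against 2.77% of all genes) and higher for 1 (3.85%, against 2.11%). Footprints were called lower for 8 (30.8%, against 10.4%) and higher for 4 (15.4%, against 8.15%). In tissue of mixed cell types, fewer cells of a type and less RNA per cell cannot be told apart.

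TE was lower in KO for 3 genes, Fmr1 (the targeted gene), Cdc26 and Trak2, and higher for 2, Pcbp2 and Dact3 (edgeR, Benjamini-Hochberg adjusted p under 0.05). These 5 are 0.0346% of the genes tested, 0.0208% lower and 0.0139% higher. By comparison, footprints alone were called higher for 1177 genes (8.15%) and lower for 1500 (10.4%) of 14438, and RNA alone higher for 293 (2.11%) and lower for 385 (2.77%) of 13877. The median SE of the log2 change was 0.104 for TE, 0.0541 for footprints and 0.0847 for RNA, while the median absolute log2 change was 0.1, 0.0874 and 0.105. At an unadjusted p under 0.05, TE was higher for 746 genes (5.17%) and lower for 820 (5.68%). The ratios of the KO lysates lay wholly above those of the WT lysates for 898 genes (6.22%) and wholly below for 1111 (7.70%). At an adjusted p under 0.1 the counts were 61 higher and 42 lower.

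The number of calls depended on single libraries. Without KO RNA replicate 3, the deepest RNA library, 80 genes were higher and 30 lower. Without the KO lysate of that number there were 59 and 11, and without WT RNA replicate 3 there were 8 and 4. Without KO lysate 2, WT lysate 1 or WT lysate 3 there was 1 in each direction, Pcbp2 and Fmr1. Without KO RNA replicate 2, KO footprint replicate 1 or KO lysate 1, 4 were higher and 2, 3 or 4 lower, and without KO footprint replicate 2, WT footprint replicate 3 or 4 or WT lysate 4 there were 1 higher and 2 lower. With a term for each lysate 2 genes were higher and 2 lower, since Trak2 no longer passed.

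Fmr1, the targeted gene (chromosome X, 68678536 to 68717963, GRCm38), checks the labels. Its RNA stood at 5.31, 4.07 and 3.90 TPM in the KO libraries and at 17.28, 16.57, 19.34 and 15.99 TPM in WT. Its footprints stood at 4.81, 4.59 and 5.03 TPM in KO and 46.3, 44.7, 43.8 and 42.7 TPM in WT. Every KO library was below every WT library in both assays, and the footprints were lower by more. RNA fell by 2.01 ± 0.11 (log2 change ± SE, edgeR adjusted p = 9.82e-08) and footprints fell by 3.21 ± 0.06 (adjusted p = 9.12e-12). The log2 footprint to RNA ratio was 0.15, 0.46 and 0.67 in the KO lysates against 1.73, 1.73, 1.45 and 1.73 in WT. TE of the remaining Fmr1 RNA was thus lower by a log2 change of -1.21 ± 0.15 (edgeR adjusted p = 0.00118). That RNA comes from the targeted allele, so its ratio is not that of an intact mRNA. How far the altered allele itself enters the ratio was not tested. The deposited values have a floor near 1 TPM, and with 1 TPM subtracted the TE change was -1.22.

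Pcbp2 encodes a poly(C)-binding protein that stabilises mRNAs and aids cap-independent translation (chromosome 15, 102470450 to 102500068). Its RNA was 328, 325 and 326 TPM in KO and 371, 367, 358 and 384 TPM in WT. Its footprints were 350, 364 and 367 TPM in KO and 304, 301, 302 and 292 TPM in WT. The assays moved in opposite directions, with no overlap of the genotypes in either. RNA fell by 0.18 ± 0.05 (adjusted p = 0.0446), footprints rose by 0.26 ± 0.04 (adjusted p = 0.00126), and TE rose by 0.44 ± 0.06 (adjusted p = 0.00118). The log2 ratio was 0.39, 0.45 and 0.47 in KO against 0.03, 0.01, 0.03 and -0.08 in WT. Pcbp2 overlaps Map3k12, a neuronal kinase, by 2422 bases, and Map3k12 had a TE change of -0.08 ± 0.06 and an RNA change of 0.01 ± 0.05. Counting by strand is not given in the sources used here.

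Dact3 encodes an antagonist of Wnt signalling (chromosome 7, 16875317 to 16887301). RNA was 183, 197 and 208 TPM in KO and 265, 245, 242 and 271 TPM in WT, and fell by 0.38 ± 0.06 (adjusted p = 0.0062). Footprints were 24.5, 27.7 and 25.2 TPM in KO and 23.7, 24.1, 22.0 and 22.5 TPM in WT. The 3 KO footprint libraries were all above the WT ones, but the footprint change of 0.16 ± 0.06 did not pass (adjusted p = 0.0709). Dact3 had few footprints for its RNA: the ratio of TPM was 0.134, 0.14 and 0.121 in KO and 0.0893, 0.0986, 0.091 and 0.0829 in WT. TE rose by 0.53 ± 0.09 (adjusted p = 0.0124). The call was lost without KO footprint replicate 2 (adjusted p = 0.0978), WT footprint replicate 3 (0.0611) or 4 (0.0583), KO lysate 2 (0.104), or WT lysate 1 (0.0607), 3 (0.0599) or 4 (0.131).

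**Figure D1:**
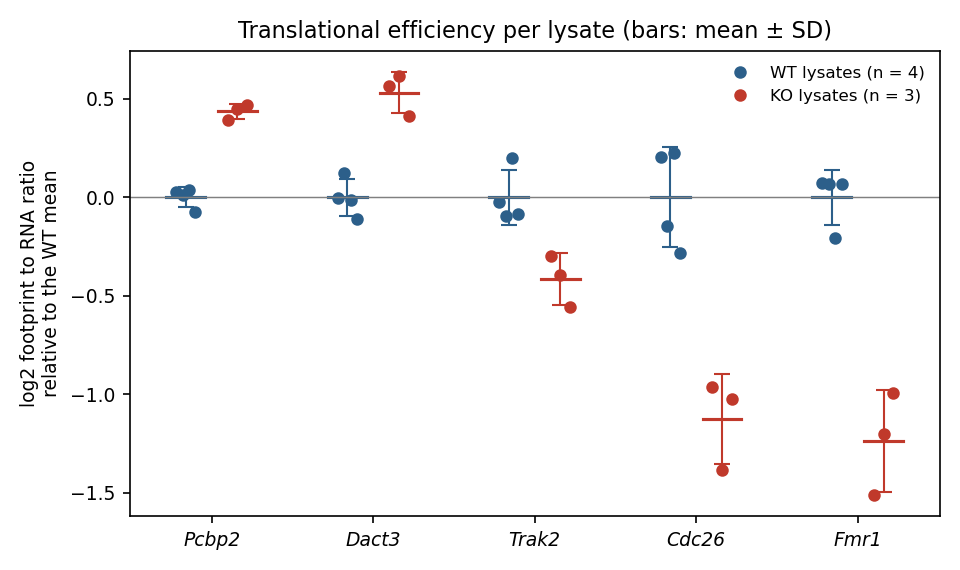
Log2 footprint to RNA ratio of the 5 genes with an adjusted p under 0.05, per lysate and relative to the mean of the WT lysates (y axis); points are lysates (3 KO, 4 WT) and bars the mean ± SD. The KO lysates of Pcbp2 and Dact3 all lie above the WT lysates and those of Trak2, Cdc26 and Fmr1 all below, with the widest spread of the WT lysates for Cdc26.

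Cdc26 encodes a small subunit of the anaphase-promoting complex, a ubiquitin ligase of the cell cycle that is also present in neurons (chromosome 4, 62392344 to 62408625). Its RNA was 29.9, 45.5 and 33.9 TPM in KO and 15.4, 18.2, 15.3 and 20.8 TPM in WT. Cdc26 is short, at 0.147 of the length of the median gene, so these TPM values rest on few counts. Its mean RNA level was 4.04 CPM (counts per M counts of the library), in RNA libraries of 4.97 to 9.96 M counts. Its footprints were 38.7, 43.2 and 41.5 TPM in KO and 44.8, 40.2, 44.7 and 42.2 TPM in WT. The RNA separated the genotypes and the footprints overlapped. RNA rose by 1.08 ± 0.17 (adjusted p = 0.00502), the footprint change was -0.08 ± 0.06 (adjusted p = 0.603), and TE fell by 1.17 ± 0.18 (adjusted p = 0.0105). The call was lost without KO RNA replicate 2 (adjusted p = 0.0971), KO lysate 2 (0.104), WT lysate 1 (0.0623) or WT lysate 3 (0.0695).

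The Cdc26 difference lay in RNA, and whether it arises where the transcript starts was not tested. The stretch from which the transcript starts is shown from the reference genome, not from these mice. It is the RefSeq promoter window, chr4:62408576-62408875 of GRCm38.p6 on the minus strand, 5′ to 3′ in the direction of Cdc26. Capitals mark the 136 bases between the annotated first base of Cdc26 and that of Prpf4, a splicing factor gene that runs the other way.
Cdc26 promoter: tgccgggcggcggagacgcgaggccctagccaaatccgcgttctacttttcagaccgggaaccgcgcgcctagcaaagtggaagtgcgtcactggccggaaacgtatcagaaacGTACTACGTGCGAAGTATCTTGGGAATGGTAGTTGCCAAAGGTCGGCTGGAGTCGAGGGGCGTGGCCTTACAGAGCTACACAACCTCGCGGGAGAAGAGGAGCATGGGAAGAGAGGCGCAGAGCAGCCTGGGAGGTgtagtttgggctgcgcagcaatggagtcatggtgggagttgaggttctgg
The window is 59.3% G and C. Prpf4, on the far side of the capitals, had an RNA change of 0.04 ± 0.09 (adjusted p = 0.875), a footprint change of 0.17 ± 0.06 (adjusted p = 0.0875) and a TE change of 0.12 ± 0.12 (adjusted p = 0.8). At the other end of Cdc26, Slc31a1, a copper transporter, had an RNA change of -0.18 ± 0.10 (adjusted p = 0.501).

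Trak2 encodes an adaptor that links mitochondria to motor proteins for transport along axons and dendrites (chromosome 1, 58900449 to 58974345). Its footprints were 21.7, 19.6 and 18.8 TPM in KO and 23.5, 22.2, 24.6 and 22.7 TPM in WT, all KO values below all WT values. Its RNA was 102, 97.1 and 106 TPM in KO and 92.3, 90.5, 80.5 and 93.4 TPM in WT, all KO values above. Footprints fell by 0.22 ± 0.05 (adjusted p = 0.00842), the RNA change was 0.19 ± 0.06 (adjusted p = 0.0799), and TE fell by 0.42 ± 0.08 (adjusted p = 0.0499). This value lay at the threshold: it passed in 12 of 36 alternatives, and with a term for each lysate the adjusted p was 0.0732. Among the fits without 1 library or lysate that lost the call, adjusted p ran from 0.0517, without WT footprint replicate 2, to 0.131, without WT lysate 4. The neighbour Stradb, a pseudokinase gene, overlaps it by 824 bases and had a TE change of 0.19 ± 0.10 (adjusted p = 0.504).

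**Figure D2:**
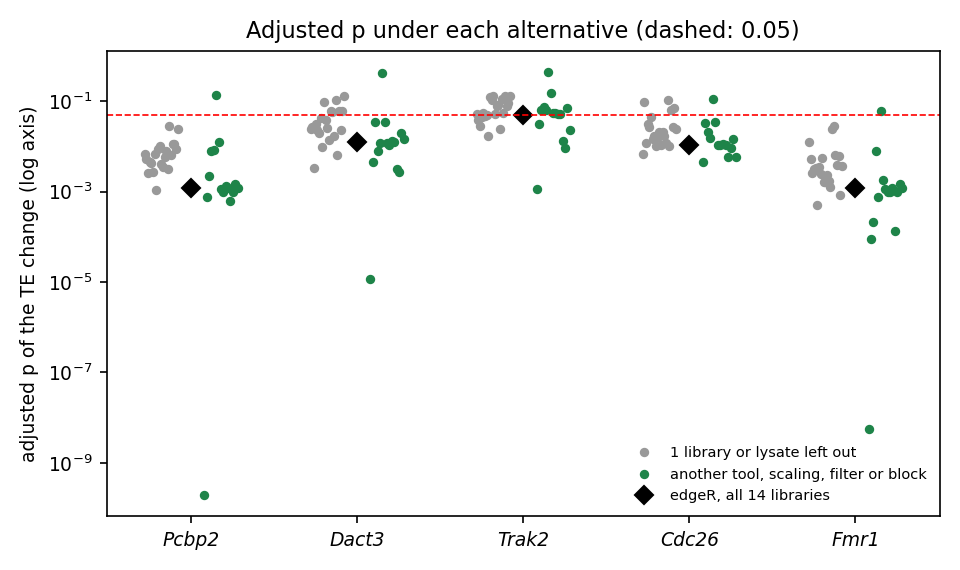
Adjusted p of the TE change (log axis) of the 5 genes with all 14 libraries (black diamonds), with 1 library or lysate left out (grey) and with another tool, scaling, filter or block (green); the dashed line is 0.05. Fmr1 and Pcbp2 passed in 35 of 36 alternatives, Cdc26 in 30 of 35, Dact3 in 28 of 36 and Trak2 in 12 of 36; DESeq2 gave no adjusted p for Cdc26.

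Among genes that met the same conditions on level and on separation of the lysates, the next 8 higher and 7 lower by p had adjusted p from 0.0655 to 0.0765 and did not pass. The higher 8 were Ube2d2a, a ubiquitin-conjugating enzyme, Rnf138, a ubiquitin ligase of DNA repair, Dusp7, a phosphatase of ERK kinases, H2afx, the histone variant phosphorylated at DNA breaks, Fam168b, an inhibitor of neurite growth, Zmiz1 and Med25, both transcription coactivators, and Gnb1, a G protein beta subunit. Their log2 TE changes ran from 0.30 (Gnb1) to 0.53 (Rnf138). Ube2d2a has near-identical relatives that may share its reads, so its value is uncertain. In all except Gnb1 the RNA change was negative and the footprint change positive. Zmiz1 showed it mostly in RNA, with a change of -0.32 ± 0.07 (adjusted p = 0.0228) against a footprint change of 0.10 ± 0.04 (adjusted p = 0.145). For H2afx both changes passed on their own: RNA fell by 0.31 ± 0.08 (adjusted p = 0.0455) and footprints rose by 0.15 ± 0.04 (adjusted p = 0.0307). The same held for Fam168b and Med25.

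Gnb1 differed in footprints only. They were 609, 620 and 630 TPM in KO and 486, 513, 488 and 481 TPM in WT, a rise of 0.32 ± 0.04 (adjusted p = 0.00058). Its RNA was 633, 616 and 621 TPM in KO and 635, 598, 572 and 650 TPM in WT, where the genotypes overlapped, with a change of 0.02 ± 0.05 (adjusted p = 0.883).

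The lower 7 were Armcx4, Os9, Fundc2, Mbtps1, Uqcc3, Yipf1 and Epha7. Os9, a lectin that sends misfolded glycoproteins out of the endoplasmic reticulum, and Mbtps1, the protease that activates membrane-bound transcription factors in the Golgi, differed in footprints. Os9 footprints were 104, 105 and 103 TPM in KO and 125, 125, 123 and 123 TPM in WT, a fall of 0.26 ± 0.03 (adjusted p = 0.000706), with RNA at 0.06 ± 0.06. Mbtps1 footprints were 7.58, 7.53 and 6.84 TPM in KO and 9.10, 8.89, 9.50 and 9.68 TPM in WT, a fall of 0.35 ± 0.05 (adjusted p = 0.00106), with RNA at -0.03 ± 0.05. For both, KO and WT footprints were far apart relative to their spread while the RNA values overlapped.

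Uqcc3, an assembly factor of respiratory complex III, and Fundc2, a protein of the outer mitochondrial membrane, resembled Cdc26. Uqcc3 RNA also rested on few counts, with a mean of 5.04 CPM and a length of 0.156 of the median gene. Uqcc3 RNA was 38.0, 43.4 and 38.5 TPM in KO and 14.4, 30.1, 27.4 and 18.4 TPM in WT, and rose by 0.80 ± 0.17 (adjusted p = 0.0165), while the footprint change was 0.01 ± 0.06. Fundc2 RNA was 32.6, 37.4 and 37.0 TPM in KO and 22.2, 25.3, 25.3 and 18.4 TPM in WT, and rose by 0.67 ± 0.12 (adjusted p = 0.00957), with a footprint change of -0.03 ± 0.05. The WT RNA libraries of Uqcc3 were more spread than the KO ones (SD 7.39 against 2.98 TPM), and those of Fundc2 slightly so (3.26 against 2.66 TPM). For Cdc26 the KO libraries were the more spread (8.06 against 2.63 TPM). In each of these genes all KO RNA libraries were above the WT ones. Armcx4, Yipf1 and Epha7 had RNA changes of 0.27, 0.16 and 0.16 and footprint changes of -0.12, -0.18 and -0.12. Epha7, an ephrin receptor of dendrites and synapses, kept the smallest TE change of the set, -0.29 ± 0.06.

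**Figure D3:**
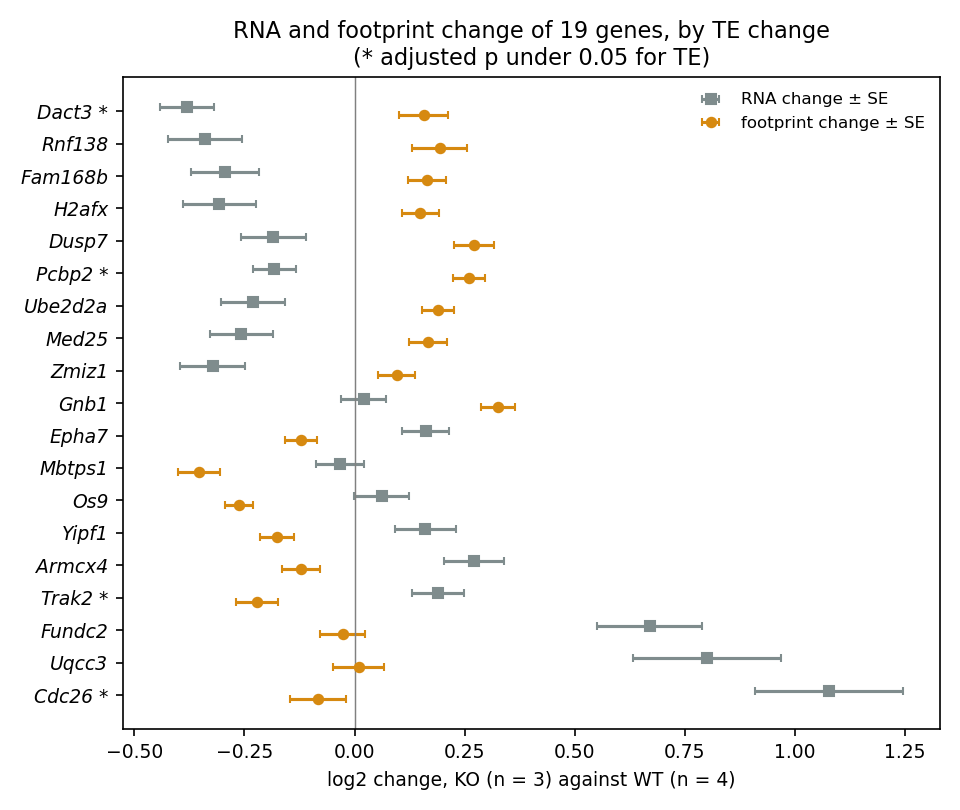
Log2 change of RNA (grey squares) and of footprints (orange circles), KO (n = 3) against WT (n = 4) with SE, for the 19 named genes other than Fmr1, ordered by TE change; the distance between the symbols is the TE change and asterisks mark adjusted p under 0.05. Gnb1, Os9 and Mbtps1 differ in footprints, Cdc26, Uqcc3 and Fundc2 in RNA, and most others in both with opposite sign. The choice of genes by TE change favours opposite signs.

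Gene lists were read against all genes tested, whose median TE change was -0.01 (middle 50% from -0.10 to 0.09). No member of any of the 41 lists was called apart from Fmr1 and Pcbp2, which belong to the RNA-binding regulators. The counts below are therefore of members at an unadjusted p under 0.05, to be set against 5.17% higher and 5.68% lower among all genes.

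The lowest medians of the 41 lists were those of neuropeptides, granins and growth factors and of the endoplasmic reticulum machinery. The peptides are packed into dense-core vesicles and released. Their TE median was -0.12, and 9 of 40 members (22.5%) were lower against 1 higher; 11 members had every KO lysate below WT (27.5%, against 7.70%). In each lysate the list median relative to WT was -0.13, -0.10 and -0.13 in KO and between -0.03 and 0.02 in WT. Chgb, a granin that drives granule formation, had footprints of 534, 588 and 594 TPM in KO and 738, 734, 693 and 670 TPM in WT. Its RNA was 75, 82.5 and 76.1 TPM in KO and 78.4, 76.6, 73.7 and 71.3 TPM in WT. Footprints separated the genotypes and RNA did not, and the TE change was -0.38 ± 0.08 (edgeR adjusted p = 0.0765). Chgb is also one of the dentate and CA3 markers, whose sum was lower in KO in both assays; the part of that in the Chgb value was not tested.

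Penk, the enkephalin precursor, had footprints of 44.5, 39.5 and 40.5 TPM in KO and 56.6, 59.0, 58.9 and 59.2 TPM in WT, with RNA of 22.3, 21.0 and 24.0 TPM in KO and 25.7, 21.3, 25.8 and 21.1 TPM in WT. Its TE change was -0.45 ± 0.11 (adjusted p = 0.1). The granin Scg2 was at -0.25 ± 0.06 (adjusted p = 0.096) and Pam, which amidates neuropeptides, at -0.21 ± 0.06 (adjusted p = 0.13). Footprints of all 4 fell on their own (adjusted p from 0.000178 for Penk to 0.00282 for Chgb).

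The folding and translocation machinery of the endoplasmic reticulum itself had a median of -0.11. Of 49 members 13 were lower (26.5%) and 0 higher, and 43 lay below the median of all genes. The list medians per lysate were -0.16, -0.12 and -0.06 in KO and 0.01, 0.04, -0.07 and 0.02 in WT, so KO lysate 3 lay within the WT range. Without KO footprint replicate 1 the median was -0.06. Hspa5, the main chaperone of the organelle, had footprints of 700.1, 712 and 703 TPM in KO and 1012, 1005, 879.5 and 840.1 TPM in WT. Its RNA was 208, 201 and 197 TPM in KO and 239, 235, 220.2 and 208 TPM in WT. Hspa5 footprints fell by 0.41 (adjusted p = 0.002) against an RNA change of -0.16, which left a TE change of -0.26 ± 0.09 (adjusted p = 0.25). Srpr, the receptor that docks ribosomes to the organelle, was at -0.25 ± 0.06 (adjusted p = 0.096) and Pdia6, a disulfide isomerase, at -0.28 ± 0.10 (adjusted p = 0.25). In footprints 31 of the 49 were called lower (63.3%, against 10.4%) and in RNA 2 (4.08%, against 2.77%).

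For extracellular matrix genes the median was -0.09 and 8 of 52 were lower (15.4%), none higher. Without KO lysate 2 the median was -0.14. That lysate, at a list median of -0.04, lay within the WT range of -0.05 to 0.05. The laminins Lamb1 and Lama2, of basement membranes, were at -0.28 ± 0.06 and -0.28 ± 0.07 (adjusted p = 0.077 and 0.11). Lamb1 footprints were 12.6, 12.3 and 12.5 TPM in KO and 15.5, 15.8, 15.2 and 15.5 TPM in WT, on RNA of 14.6 to 14.9 TPM in KO and 14.9 to 15.9 TPM in WT. Lum, a collagen-binding proteoglycan of fibroblasts, was at -0.83 ± 0.19 (adjusted p = 0.15) on RNA below 5 TPM in every library. The 21 fibroblast and meningeal markers summed to 1777 to 1862 TPM in KO footprints and 2177 to 2448 in WT, and to 1023 to 1215 and 1379.8 to 1589 TPM in RNA. How far fewer such cells enter the matrix values was not tested.

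Protocadherins, adhesion molecules that give neurons their identity, had 13 of 68 members lower (19.1%) and none higher, 53 members below the median of all genes, and a list median of -0.10. KO lysate 2, at a list median of -0.048, lay within the WT range of -0.052 to 0.083. The single gene Pcdh20 was at -0.25 ± 0.06 (adjusted p = 0.077), from footprints of 67.8, 68.5 and 71.1 TPM in KO and 86.2, 89.1, 87.3 and 86.9 TPM in WT. The clustered members, such as Pcdhga6 at -0.28 ± 0.09, share exons and near-identical sequence, so reads may be split among them and their values are uncertain. Lysosomal genes, whose enzymes pass through the same organelle, had 6 of 52 members lower (11.5%), none higher, and a median of -0.07. That median was -0.04 without KO footprint replicate 1 and -0.05 without KO lysate 1, and KO lysate 2 lay within the WT range. Ctsl, a lysosomal protease, was at -0.25 ± 0.07 (adjusted p = 0.13).

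Voltage-gated sodium and calcium channel genes, which carry the action potential and calcium entry, had 7 of 25 members lower (28%), 1 higher, and a median of -0.08. Their list medians were -0.15, -0.05 and -0.06 in the KO lysates and -0.04 to 0.04 in WT, and the median was -0.05 without KO lysate 1 or without KO RNA replicate 1. Scn2a1, the axonal sodium channel, had footprints of 70.8, 70.2 and 69.0 TPM in KO and 79.2, 77.4, 77.2 and 78.9 TPM in WT, and RNA of 135, 119 and 114 TPM in KO and 122, 113, 116 and 118 TPM in WT. Only the footprints separated the genotypes, and TE was at -0.23 ± 0.06 (adjusted p = 0.12). Scn1a, Scn3a and the calcium channel subunit Cacna2d3 were at -0.24 ± 0.07, -0.20 ± 0.07 and -0.26 ± 0.06 (adjusted p = 0.17, 0.23 and 0.089). GABA-A receptor subunits had 3 of 14 members lower (21.4%) and a median of -0.07. For GABA-A the KO lysates spread from -0.18 to 0.01 around WT values of -0.04 to 0.03, and the median was -0.02 without KO lysate 1 and -0.13 without KO lysate 3. The potassium channels were at 0.00, with 5 of 69 lower (7.25%) and 3 higher (4.35%).

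**Figure D4:**
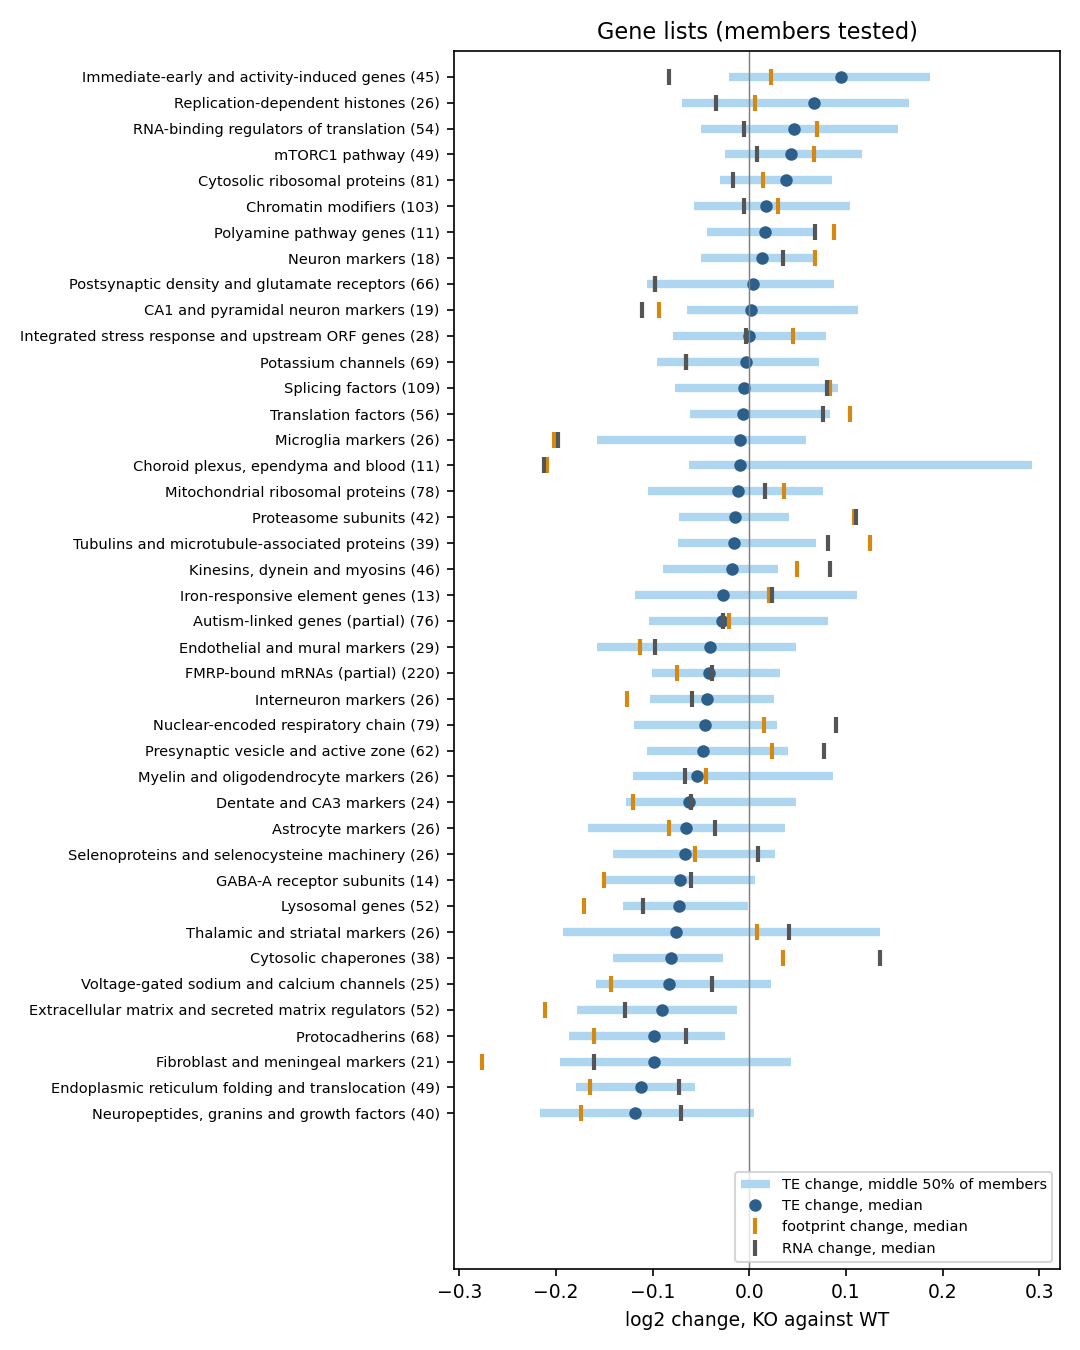
TE change of 41 gene lists, KO against WT: blue circles are the median over the members tested (number in brackets), pale bars the middle 50% of members, and orange and grey ticks the median footprint and RNA change. Neuropeptides and the endoplasmic reticulum machinery lie lowest with footprints further down than RNA, and immediate-early genes highest with RNA below footprints.

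Synaptic lists divided by RNA and footprints. Postsynaptic genes had a TE median of 0.00 because footprints and RNA were shifted alike, each with a median of -0.10. Within that list 11 of 66 were lower (16.7%) and 5 higher (7.58%). The AMPA receptor subunit Gria1 had footprints of 332.0, 329.7 and 335.7 TPM in KO and 392.1, 392.5, 390.6 and 397.2 TPM in WT, on RNA of 428, 421 and 430.3 TPM in KO and 443, 446, 415 and 444 TPM in WT. Gria1 TE was at -0.22 ± 0.06 (adjusted p = 0.099), Gria2 at -0.21 ± 0.06 (adjusted p = 0.18) and the NMDA receptor subunit Grin2b at -0.20 ± 0.06 (adjusted p = 0.2).

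Presynaptic genes had a TE median of -0.05, with 9 of 62 lower (14.5%) and 1 higher (1.61%), from an RNA median of 0.08 and a footprint median of 0.02. Without WT lysate 2 the TE median was -0.03. Snap25 shows this: its RNA was 780.1, 752 and 783 TPM in KO and 704, 671, 634 and 649 TPM in WT, a rise of 0.22 (adjusted p = 0.028), while its footprints overlapped at 5045 to 5182 TPM in KO and 5039 to 5191 TPM in WT. Its TE change was -0.24 ± 0.06 (adjusted p = 0.096). Ppfia4, a scaffold of the active zone, was at -0.25 ± 0.07 (adjusted p = 0.16) and Slc17a6, a vesicular glutamate transporter, at -0.33 ± 0.11 (adjusted p = 0.24). The presynaptic list medians of KO lysates 1 and 2, at -0.02 and -0.01, lay within the WT range of -0.04 to 0.02.

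The partial list of FMRP-bound mRNAs had 22 of 220 members lower (10%) and 8 higher (3.64%) and a TE median of -0.04, and 31 had every KO lysate below WT (14.1%, against 7.70%). Its list medians were -0.06, 0.01 and -0.08 in the KO lysates and -0.05, 0.04, 0.04 and -0.02 in WT, which overlapped. The median was -0.02 without KO RNA replicate 1, -0.03 without KO footprint replicate 3 or WT lysate 3, and -0.07 without KO lysate 2 or KO RNA replicate 2. In footprints 74 were called lower (33.6%, against 10.4%) and 14 higher (6.36%, against 8.15%). In RNA 14 were lower and 11 higher (6.36% and 5%, against 2.77% and 2.11%). Among the FMRP-bound members with the smallest TE p were the cadherin Fat3 at -0.32 ± 0.08 (adjusted p = 0.096), Scn2a1, and the spectrin Sptb at -0.25 ± 0.07 (adjusted p = 0.15). These mRNAs are long, and over all genes the TE median was -0.03 in the longest of 5 length classes and -0.01 in the shortest. The partial autism-linked list, which shares members with it, had 7 of 76 lower and 7 higher (9.21% each) and a median of -0.03.

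Immediate-early and activity-induced genes had the highest TE median, 0.09, with 6 of 45 higher (13.3%) and 0 lower. Their RNA median was -0.08 and their footprint median 0.02. Jund, an AP-1 transcription factor, had RNA of 651, 581 and 695 TPM in KO and 754, 766, 711 and 762 TPM in WT, and footprints of 176, 172 and 179 TPM in KO and 153, 171, 161 and 148 TPM in WT. The assays separated the genotypes in opposite directions, with a TE change of 0.36 ± 0.08 (adjusted p = 0.08). RNA of Klf2, Egr1 and the phosphatase Dusp1 had log2 changes of -0.79, -0.43 and -0.33 (adjusted p = 0.014, 0.016 and 0.02), with footprint changes of 0.00, -0.05 and -0.06. For this list KO lysate 3 was at 0.01 and KO lysates 1 and 2 at 0.14 and 0.16, against -0.03 to 0.07 in WT. Leaving out KO RNA replicate 3 gave a median of 0.19 and leaving out KO RNA replicate 2 gave 0.03.

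**Figure D5:**
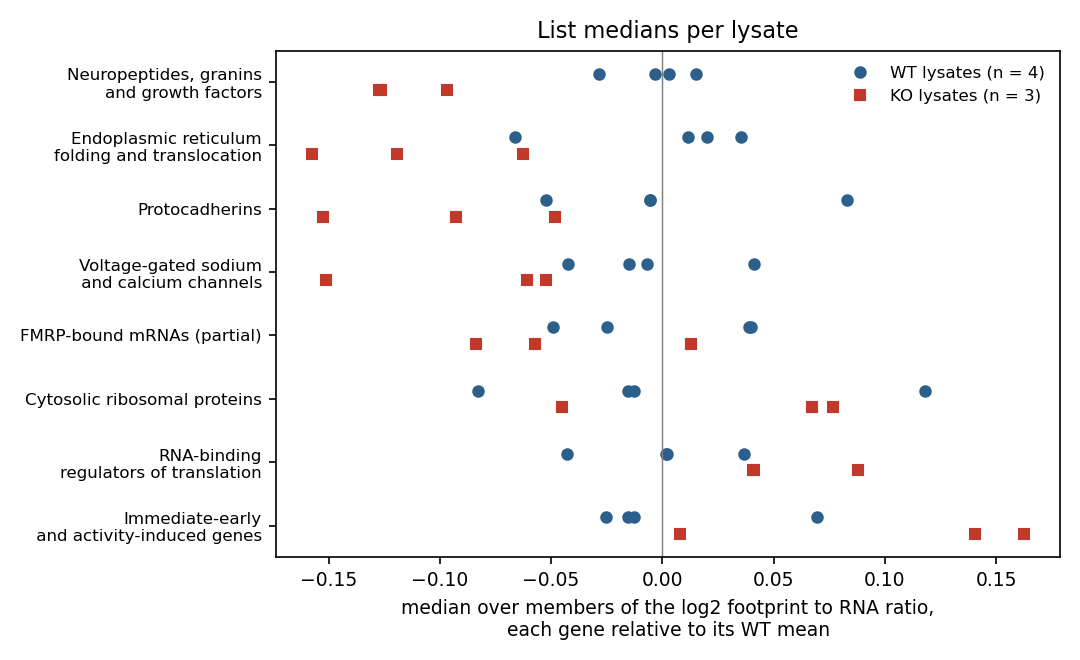
Median over the members of 8 lists of the log2 footprint to RNA ratio in each lysate, every gene taken relative to its WT mean (x axis); circles are WT (n = 4) and squares KO lysates (n = 3). The KO lysates lie below all WT lysates for neuropeptides and for sodium and calcium channels, above them for RNA-binding regulators, and overlap them in the other lists shown. The gap is narrow for the channels (-0.052 in the nearest KO and -0.042 in the nearest WT lysate). It is narrower for the regulators (0.041 and 0.037).

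The machinery of translation showed small shifts. Cytosolic ribosomal proteins had a TE median of 0.04, with 7 of 81 higher (8.64%) and 1 lower (1.23%), but the median turned to -0.01 without KO RNA replicate 1 and to 0.09 without KO RNA replicate 2, and WT lysates alone ran from -0.08 to 0.12. Rpl29 was the member with the smallest p, at 0.31 ± 0.08 (adjusted p = 0.094), from RNA that fell by 0.28 (adjusted p = 0.013) with footprints at 0.03. Ribosomal protein genes have many processed copies, so their counts are uncertain. Translation factors were at -0.01, although 21 of 56 had called higher footprints (37.5%, against 8.15%), because RNA was shifted with them. Of the 56, 4 were higher in TE (7.14%) and 2 lower (3.57%). The lower ones were the elongation factor subunit Eef1b2 and the initiation factor Eif1ax, at -0.28 ± 0.11 each (adjusted p = 0.32 and 0.33). The poly(A)-binding protein Pabpc1 and its partner Paip1 were at 0.25 ± 0.08 and 0.35 ± 0.08 (adjusted p = 0.2 and 0.091). Both had higher footprints (adjusted p = 0.0046 and 0.0045) on RNA changes of -0.03 and -0.13. The mTORC1 pathway was at 0.04, with 3 of 49 higher and 1 lower, and moved to 0.02 without KO lysate 3, 0.03 without KO RNA replicate 3, and 0.07 without KO RNA replicate 1 or KO footprint replicate 2.

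RNA-binding regulators of translation, the list of FMRP itself, had a TE median of 0.05, with 9 of 54 higher (16.7%) and 2 lower (3.7%), Fmr1 and Cirbp. The median was 0.03 without KO RNA replicate 2 or 3 or KO footprint replicate 1, and 0.07 without KO RNA replicate 1. List medians were 0.041, 0.041 and 0.088 in the KO lysates and 0.002, 0.001, 0.037 and -0.043 in WT, so the genotypes were barely apart. Zfp36l1, which speeds mRNA decay, had RNA of 22.9, 15.2 and 24.3 TPM in KO and 32.6, 32.3, 25.6 and 33.0 TPM in WT, and overlapping footprints of 58.0 to 63.4 TPM in KO and 52.8 to 60.2 TPM in WT. Its TE change was 0.60 ± 0.14 (adjusted p = 0.087). Cirbp, a cold-induced protein, was the reverse, with RNA of 39.3, 58.3 and 47.5 TPM in KO and 29.0, 33.9, 33.5 and 31.7 TPM in WT and a TE change of -0.51 ± 0.14 (adjusted p = 0.13). KO RNA replicate 2 was the extreme library for both.

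Classes with known translational switches held single members of note. Ftl1, the ferritin light chain, whose translation iron controls through its leader, had footprints of 111, 135 and 131 TPM in KO and 98.8, 88.5, 95.2 and 82.8 TPM in WT on overlapping RNA, with a TE change of 0.42 ± 0.11 (adjusted p = 0.11). Epas1, with the same kind of element, was at 0.46 ± 0.11 (adjusted p = 0.089), mainly through lower RNA. The list of 13 such genes had a median of -0.03. In the polyamine pathway Odc1, the first enzyme, was at 0.26 ± 0.08 (adjusted p = 0.15) and its stabiliser Azin1 at -0.16 ± 0.06 (adjusted p = 0.34). Among selenoproteins, which read a stop codon as selenocysteine, Sepw1 was at -0.40 ± 0.11 (adjusted p = 0.15) and Eefsec, the elongation factor that delivers it, at 0.33 ± 0.08 (adjusted p = 0.089). Genes of the integrated stress response were at 0.00, with 1 of 28 higher and 0 lower.

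Splicing factors and proteasome subunits differed in footprints with TE medians near 0. Splicing factors had footprint and RNA medians of 0.08 each and a TE median of -0.01, with 9 of 109 higher and 9 lower (8.26% each). Within them Nova2, a neuronal splicing regulator, was at 0.40 ± 0.09 (adjusted p = 0.077), with RNA of 41.5, 40.7 and 47.8 TPM in KO against 56.9, 56.0, 54.1 and 54.2 TPM in WT. Proteasome subunits had medians of 0.11 in both assays and a TE median of -0.02. Chromatin modifiers were at 0.02, with 9 of 103 higher (8.74%) and 4 lower (3.88%), among them Ezh2, the methyltransferase of Polycomb, at 0.49 ± 0.11 (adjusted p = 0.12), with footprints of 3.40 to 3.64 TPM in KO and 2.44 to 2.86 TPM in WT. Microglia markers had median changes of -0.20 in both assays and a TE median of -0.01.

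Among nuclear genes of the respiratory chain 10 of 79 were lower (12.7%) and 2 higher (2.53%), and the TE median was -0.05, from an RNA median of 0.09 and a footprint median of 0.02. Atp5k, a small subunit of ATP synthase, had RNA of 116, 163 and 145 TPM in KO and 81.6, 122, 94.8 and 91.1 TPM in WT and was at -0.70 ± 0.17 (adjusted p = 0.091). For the respiratory list the WT lysates spread from -0.10 to 0.09, and KO lysates 1 and 3, both at -0.04, lay within them while KO lysate 2 was at -0.13. In 9 of the 21 fits that left out a library or lysate the median moved by over 1.5 times, from -0.02 without KO lysate 2 to -0.10 without WT RNA replicate 3. Cytosolic chaperones had an RNA median of 0.14, a footprint median of 0.03 and a TE median of -0.08, with 5 of 38 lower (13.2%) and 0 higher. Without KO lysate 2 that TE median was -0.05. Chaperone list medians were -0.06, -0.16 and -0.06 in the KO lysates and -0.03 to 0.02 in WT. Hspa9, a chaperone of mitochondria kept in that list, rose in RNA by 0.34 (adjusted p = 0.0085) and in footprints by 0.18 (adjusted p = 0.0094), with TE at -0.17 ± 0.07 (adjusted p = 0.39).

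Astrocyte markers had 9 of 26 lower (34.6%) and 2 higher (7.69%), with a TE median of -0.07. The median was -0.01 without KO footprint replicate 1 and -0.03 without KO lysate 1, and the KO lysates, at -0.11, 0.00 and -0.05, overlapped WT lysates of -0.04 to 0.05. Gja1, the astrocytic gap junction protein, had footprints of 279.8, 292 and 291 TPM in KO and 337, 339, 348 and 366 TPM in WT and overlapping RNA, with TE at -0.23 ± 0.07 (adjusted p = 0.17). The astrocyte markers summed to 14126 to 15008 TPM in KO footprints and 16198 to 16761 in WT, and to 13124 to 13558 and 14035 to 14245 TPM in RNA. The 26 myelin and oligodendrocyte markers had 3 members higher (11.5%) and 1 lower (3.85%) and a TE median of -0.05, with 17 below the median of all genes. Their median ran from -0.09 without WT RNA replicate 2 to -0.02 without WT RNA replicate 1. KO lysate 1, at a list median of 0.03, lay within the WT range of -0.02 to 0.04. Mal, a membrane protein of myelin, was at -0.21 ± 0.08 (adjusted p = 0.29), with every KO lysate below WT. Olig2, which specifies oligodendrocytes, was at 0.49 ± 0.11 (adjusted p = 0.077). Its RNA fell from 55.3, 52.6, 49.2 and 59.5 TPM in WT to 36.5, 37.2 and 39.0 TPM in KO (adjusted p = 0.0039), and its footprints overlapped. Olig1, a related factor, was at 0.23 ± 0.08 (adjusted p = 0.27).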

How the data were processed

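Per the submitters' processing notes, the tools were cutadapt 1.7.1, Trimmomatic 0.32, Bowtie2 2.1.0, TopHat2 2.0.9, SAMtools 0.0.19, bedtools and RSEM 1.2.11, with the mm10 build. The authors deposited estimated counts per gene and TPM for 14 libraries, 3 KO and 4 WT in each assay. The deposited TPM values have a floor near 1. Replicates 1 and 2 against 3 and 4 hold 2.02% of the within-group variance in RNA and 3.90% in footprints, where 20% would be an equal share, and genes with scaled counts of 20 to 50 had a ratio of variance to mean of 0.38 to 0.406 in RNA and 0.158 to 0.174 in footprints, below 1. Values that vary less than counting noise may have been adjusted before deposit, so p-values may be too small, and no counting interval is given.

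Estimated counts were rounded and tested in R 4.3.3 with edgeR 4.0.16: filterByExpr (minimum count 10), TMM within each assay, a robust quasi-likelihood F-test of assay by genotype and Benjamini-Hochberg adjustment over 14435 genes. Every adjusted p is from this test, or from the same test within an assay, unless another tool is named. SE is the log2 change over the square root of F. RNA and footprints of a number come from one lysate, per the labels' protocols. Same-numbered RNA and footprint libraries of a genotype deviated together little (r from -0.046 to 0.16). The pairing by number, on which the lysate ratios rest, was therefore taken from the labels and not established from the values. Fit alternatives used DESeq2 1.42.0, limma 3.58.1, other scalings, filters and blocks. The test was tried on simulated data.

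Named genes are Fmr1, then up to 10 per direction with adjusted p under 0.05, at least 2 CPM and 2 TPM, and separated lysate ratios, filled by p, and up to 4 members per list with the smallest p. Some genes that the rule names are not reported here. Members, lists and rules were chosen with earlier results of these data known. Positions and the promoter are from RefSeq (GRCm38.p6), in which 13729 symbols matched directly. Lysates are pools of animals.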

Additional observations from a re-analysis of the deposited data

Results flagged for a closer look

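Of 61 sets of 4 WT lysate values examined, 6 had a lysate far from the others; chance gives about 1 in 20. For Fmr1 the WT log2 footprint to RNA ratio was 1.45 in lysate 3 and 1.73 in each of the others. Ube2d2a was at -0.046 in WT lysate 1 against -0.26 to -0.23, and Med25 at -2.12 in WT lysate 1 against -1.93 to -1.89. Median ratios relative to WT of tubulins and microtubule-associated proteins were -0.034 in WT lysate 1 against 0.00 to 0.01. Those of immediate-early genes were 0.070 in WT lysate 3 against -0.03 to -0.01, and those of myelin and oligodendrocyte markers 0.041 in WT lysate 3 against -0.02 to -0.01.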

How the results depend on the processing

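The 20 named genes kept their direction in every alternative that gave a value, 35 for Cdc26, Armcx4, Mbtps1 and Uqcc3 and 36 for the others. They were chosen by small p and separated lysates of these same data, so a reversal was hardly possible and their kept direction is no support. Against 2 genes higher and 3 lower, there were 50 and 47 with DESeq2, 21 and 15 with voom and quality weights, 39 and 31 with limma on log2(TPM + 1), 46 and 27 among 8256 genes with at least 10 TPM in both assays, 34 and 20 with 1 TPM subtracted, and 5 and 5 with a length trend removed. Leaving out 1 library or lysate gave 1 to 80 higher and 1 to 30 lower. A replicate block by number, for which same-numbered KO and WT libraries did not deviate together (r from -0.44 to 0.00), gave 0 and 0 (edgeR, 498 and 584 at unadjusted p under 0.05), with adjusted p of 0.0598 for Fmr1 and 0.137 for Pcbp2. A replicate block for the lysate gave 2 and 2, and limma on lysate ratios 2 and 4; beyond Trak2 this pairing ended no call. Replicate set as a term, other scalings, no filter and no robust step gave 2 and 2 each. The cause of these differences was not tested. Of the list medians under alternatives 130 moved by more than the spread between lysates and 1346 did not. RNA, at 4.97 to 9.96 M counts, was shallower and more spread between replicates than footprints and limits the precision of TE.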
